A study of Homo sapiens with 8 samples.

Results

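Developmental transcription factor and nuclear receptor genes were examined in MIA PaCa-2, a long-established cell line from a human pancreatic ductal carcinoma, after sorting of its cells by permeability to lactic acid. The genes were chosen by symbol alone, from 19 families (SOX, FOX, KLF, HOX, the numbered NR nuclear receptors, TBX, GATA, HES and HEY, ID, BHLH, sine oculis genes such as SIX4, LHX, NKX, POU, PAX, TCF, TOX, ETV and ELF). The rule matched 47 of the 3666 genes in the authors' deposited table, and 17 of the 19 families had a listed gene. No POU or ETV gene was among them, and such genes were not analysed here. The 47 include 3 antisense RNA genes that carry a family symbol (FOXD2-AS1, HOXB-AS3 and NR2F1-AS1).

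The libraries came from a fraction with low permeability (PHLac-low) and a fraction with high permeability (PHLac-high), 4 libraries of each, paired as repeats 1 to 4. Both fractions are labelled wild type with no treatment. All cells had been given a lactate-containing medium for a short time, then washed, as the sort requires. The fractions are extremes of 1 line, and the labels do not say whether the repeats were separate cultures, so p-values speak only for these libraries. The main p-values weigh the change within repeats against its variation from repeat to repeat. Every listed gene had an adjusted p of at most 0.05 in the authors' own comparison of the same libraries, so the table was selected for the difference described here.

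Values are normalised counts, that is reads of a gene divided by 1 size factor per library. Reads in the listed genes ranged from 8979276 to 23176205 per library, which is part of each library and not its depth. Of the markers written down for a pancreatic carcinoma line, 1 of 8 was listed, the ductal keratin KRT19, at 14890 to 22697 in PHLac-low and 14790 to 24031 in PHLac-high. The leukocyte phosphatase gene PTPRC was lower in PHLac-high (60.8 to 159, against 186 to 418 in PHLac-low), CD68 was higher (1149 to 3350 against 1018 to 1888), and the fibroblast collagen gene COL1A1 stood at 60.8 to 126 against 83.4 to 191. Summed over the 2 listed of 3 leukocyte markers, the level was 1215 to 2074 in PHLac-low and 1227 to 3410 in PHLac-high. The other markers of leukocytes and fibroblasts, and all acinar, endocrine and endothelial ones, were not analysed here, and the part of other cell types in the results was not tested. In bulk RNA, fewer cells expressing a gene and less RNA per cell cannot be told apart.

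Developmental transcription factors bind DNA through conserved domains (homeobox, forkhead, HMG box, zinc finger, T-box, ETS or basic helix-loop-helix) and set which genes a lineage uses. Nuclear receptors share a zinc finger DNA-binding domain and a ligand-binding domain, although the NR4A receptors act without a known classical ligand and are switched on as immediate early genes by many stimuli. In the pancreas SOX9 marks ductal and progenitor cells, NR5A2 supports acinar identity, and KLF4, KLF5 and ELF3 are epithelial regulators.

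Sequences next to transcription starts were read for the families, to set letters beside the values that follow. The promoter table (RefSeq, GRCh38.p14) matched 33 of the 47 genes, with 64 starts. Genes without an entry included FOXL1, SOX15, LHX1, HOXB2, HOXB3, HOXB13, SOX9, FOXJ1, SIX5, NR4A2, NKX2-5 and HEY1. The 250 bases before each start were searched on both strands for 16 motifs. The 7 described, chosen after the matches were seen, are the cyclic AMP response element TGACGTCA (CRE), its 5-letter core TGACG, which lies inside it, the NR4A site AAAGGTCA (NBRE), the STAT site TTCCNGGAA, the E-box CACGTG, the heat shock core GAANNTTC and the palindromic glucocorticoid receptor site. Windows of 5 genes, free of GENCODE exons, are shown, with every match to those 7 in capitals. TOX2 (chr20:43915880-43916129, plus strand) is shown as the HMG box gene with one of the largest decreases, and NR4A1 (chr12:52037465-52037714, plus strand) as the nuclear receptor gene most like NR4A2. GATA2 (chr3:128493202-128493451, minus strand) holds the single glucocorticoid receptor site match, and NR1D2 (chr3:23945871-23946120, plus strand) and KLF4 (chr9:107489770-107490019, minus strand) hold E-boxes. These windows were chosen after the matches and values had been seen.
TOX2: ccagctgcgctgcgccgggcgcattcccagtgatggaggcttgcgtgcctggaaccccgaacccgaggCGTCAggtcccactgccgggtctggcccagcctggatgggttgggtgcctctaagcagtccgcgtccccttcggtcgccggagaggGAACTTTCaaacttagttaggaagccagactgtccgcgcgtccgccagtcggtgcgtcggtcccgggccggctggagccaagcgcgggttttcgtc
NR4A1: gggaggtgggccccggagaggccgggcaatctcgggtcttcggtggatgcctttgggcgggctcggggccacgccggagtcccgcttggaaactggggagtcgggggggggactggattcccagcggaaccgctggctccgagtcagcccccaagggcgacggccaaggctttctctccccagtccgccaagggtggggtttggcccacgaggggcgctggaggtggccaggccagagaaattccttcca
GATA2: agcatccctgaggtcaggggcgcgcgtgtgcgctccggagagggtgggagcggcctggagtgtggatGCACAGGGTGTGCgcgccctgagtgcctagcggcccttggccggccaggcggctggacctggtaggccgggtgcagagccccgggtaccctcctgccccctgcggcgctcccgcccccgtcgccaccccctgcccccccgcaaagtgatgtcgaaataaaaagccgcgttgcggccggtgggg
NR1D2: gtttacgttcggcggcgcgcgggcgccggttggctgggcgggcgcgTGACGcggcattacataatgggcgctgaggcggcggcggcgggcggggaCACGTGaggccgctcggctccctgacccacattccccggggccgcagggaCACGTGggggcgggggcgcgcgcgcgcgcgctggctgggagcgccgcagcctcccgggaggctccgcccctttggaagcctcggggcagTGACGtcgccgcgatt
KLF4: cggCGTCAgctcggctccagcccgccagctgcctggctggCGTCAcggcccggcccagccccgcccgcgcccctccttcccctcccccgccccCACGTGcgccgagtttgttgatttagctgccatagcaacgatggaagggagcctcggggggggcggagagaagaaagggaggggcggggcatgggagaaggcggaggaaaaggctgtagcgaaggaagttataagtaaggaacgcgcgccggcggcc

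The TOX2 window holds a TGACG core starting 182 bases before the start and a heat shock core 96 bases before it. The GATA2 match starts 183 bases before the start, and the NR1D2 window has E-boxes at 155 and 105 bases before it. None of the 7 motifs is in either NR4A1 window. The E-box was in 8 of the 64 windows (12.5%), in BHLHE40, ELF4, HOXA3, KLF11, KLF4, KLF6, NR1D2 and NR2F2, and in 6.34% of all 35116 RefSeq windows of that length. Those windows of BHLHE40, KLF11, KLF6 and NR2F2 overlap GENCODE exons. The TGACG core was in 15 windows (23.4%) and in 21.2% of all windows. The CRE (KLF11) and the NBRE (TCF7) were each in 1 window (1.56%), against 1.65% and 1.05% of all windows, and the STAT site in 0, against 0.968%. The heat shock core was in 5 windows (7.81%, against 5.78%), and the glucocorticoid receptor site in 1 (1.56%, against 0.327%). Of the other 9 motifs, those of the families themselves were the forkhead TGTTTAC in 5 windows (7.81%, against 2.98% of all), the SOX ACAAAG in 10 (15.6%, against 13.7%), the KLF CACCC in 38 (59.4%, against 54.7%) and AGATAA, a site of GATA factors, in 5 (7.81%, against 9.17%). TATAAA was in 8 (12.5%, against 10.7%), the STAT-like TTCNNNGAA in 4 (6.25%, against 6.57%) and the AP-1 site TGANTCA in 3 (4.69%, against 6.57%). For the CArG box the search was loose: 10 letters that begin with CC and end with GG, with any bases between, not only A or T. That pattern was in 55 windows (85.9%, against 73.7%), so its matches do not show CArG boxes. The serum response element, searched as a fixed sequence, was in 0, against 0.0313%. These are letter matches, not shown to be bound.

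The first comparison asked which of the family genes differed between the fractions. Of the 47 genes, 27 were higher and 20 lower in PHLac-high. FOXJ1, KLF5, SOX9, SOX4, ID2, NKX2-5, KLF4, SIX4, NR3C1 and GATA2 were among the higher genes, and NR4A2, FOXL1, TOX2, NR5A2 and NR4A1 among the lower. All 47 passed limma with the repeat as a block (adjusted p from 1.24e-05 to 0.0293, adjusted over the 3666 listed genes), as did 99.9% of the listed genes, so passing says nothing particular about them. The shares by direction were near those of the table: 57.4% of the 47 were higher, where 58.7% of listed genes were called higher, and 42.6% were lower, where 41.2% were called lower. The direction was the same in all 4 repeats for 45 of the 47 (96.1% of listed genes). Leaving out a repeat left from 43 to 47 genes past the threshold. The share of all listed genes that passed those fits is not given here, so these counts are not particular to the 47.

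The changes of the higher genes were larger than the table's median. Their median log2 change was 0.73, against 0.37 for all higher listed genes, while the lower genes had -0.46 against -0.48. An absolute log2 change of at least 1 was found for 10 of the 47 (21.3%), where 11.1% of listed genes had one, and 6 of these 10 were increases (5.92% of listed genes rose by as much) and 4 decreases (5.21%). The 10 include ELF5, TBX1 and HOXB-AS3, the 3 of the 47 with a mean normalised count under 100. Over all 47 the median was 0.32, and over all listed genes it was 0.25. The 92 listed ZNF zinc finger genes, the other large group of transcription factors in the table, had 0.22, with 51.1% higher. Their higher genes had a median of 0.50, also above the 0.37 of the table, and their lower genes -0.47. No test of these differences was made. When libraries were instead scaled by their upper quartile, the median of all listed genes was 0.02. Then 17 of the 47 were called higher (23.2% of listed genes) and 20 lower (41.2%), 37 in all (64.4%). Increases made up 45.9% of these calls and 36.0% of the calls over all listed genes. ELF5, FOXK2, FOXO3B, HEY1, ID3, KLF6, NR1D2, NR2F1-AS1, NR2F2 and SOX15 no longer passed, and none of the 47 changed sign.

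**Figure D1:**
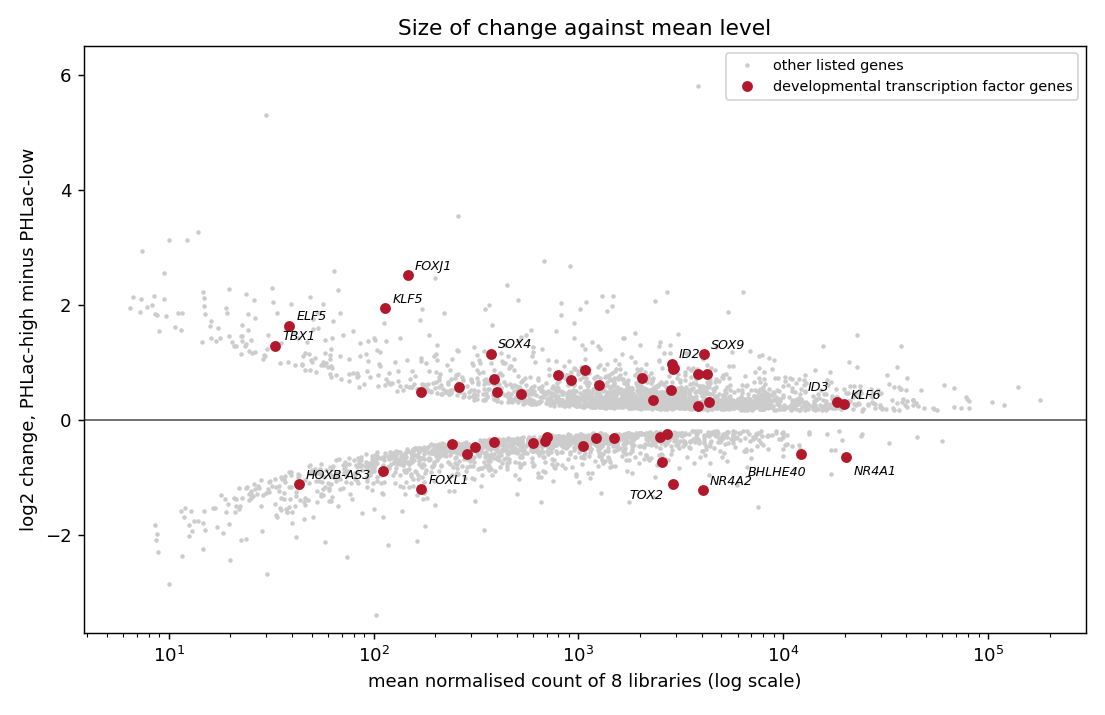
Limma log2 change (PHLac-high minus PHLac-low, vertical axis) against the mean normalised count of 8 libraries (horizontal log axis) for the 47 family genes (red) and the other listed genes (grey). The band around 0 is empty because the table holds selected genes, and it widens towards low counts. Of the 47, FOXJ1 and KLF5 have the largest increases, and NR4A2, FOXL1, HOXB-AS3 and TOX2 lie below -1.

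Base composition moved with the direction. The median transcript GC content was 51.0% in the 27 higher and 55.9% in the 20 lower genes, and in all listed genes it was 46.6% and 56.8%. With GC content taken out of each library, and the repeat kept as a block, 39 of the 47 passed (64.1% of listed genes did). FOXD2-AS1, KLF6, NR1D2, NR2F1-AS1, NR2F2, PAX2, SIX5 and SOX12 did not pass.

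An orphan nuclear receptor gene was among the 4 with a log2 decrease of at least 1. NR4A2 (Entrez 4929, chr2:156324437-156332721, RefSeq, GRCh38.p14) encodes NURR1, a transcriptional activator needed for dopamine neurons. Its normalised count in PHLac-low was 8931, 6760, 5325 and 1709 in repeats 1 to 4, and in PHLac-high 3823, 2835, 2107 and 829. The groups overlap, since the PHLac-low library of repeat 4 lies below 3 of the PHLac-high libraries. Within each repeat the PHLac-high library was lower, by similar amounts, with log2 changes of -1.22, -1.25, -1.34 and -1.04.

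The group means of NR4A2 were 5681 ± 3035 and 2399 ± 1261 (SD, n = 4). With the repeat as a block, limma gave a log2 change of -1.21 ± 0.065 (SE; adjusted p = 1.24e-05), a level 2.32-fold lower. Without the block the change did not pass (limma adjusted p = 0.0981). Of the variation of its log2 values over the 8 libraries, 66.8% lay between repeats, 32.9% between fractions and 0.257% in neither.

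NR4A1, which encodes the paralogous early-response receptor NUR77, was the gene most like NR4A2 among the 47 (Pearson r = 0.971 of log2 values over the 8 libraries, which share the repeats). Its PHLac-low mean was 24524 ± 7227 and its PHLac-high mean 16239 ± 6008 (SD, n = 4), a log2 change of -0.63 ± 0.071 (SE). Repeat 4 was again the lowest of both fractions, with 13782 and 7817. The next most alike were ELF3 (0.950) and HOXA3 (0.938). NR4A1 also missed the threshold without the block (limma adjusted p = 0.134).

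NR5A2, encoding the phospholipid-binding receptor LRH-1 of acinar and liver cells, was lower in PHLac-high in every repeat. Its PHLac-low mean was 3219 ± 552 and its PHLac-high mean 1931 ± 223 (SD, n = 4; log2 change -0.73 ± 0.062, SE), and its groups did not overlap. The groups did not overlap for 24 of the 47 genes, 20 higher and 4 lower, against 36.7% of listed genes (23.3% higher and 13.4% lower). The 4 lower ones were NR5A2, TOX2, FOXL1 and HOXB3.

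The other nuclear receptors of the symbol rule were higher. NR3C1, which encodes the glucocorticoid receptor, had 2792 ± 266 and 4894 ± 493 (SD, n = 4), a log2 change of 0.81 ± 0.094 (SE). Of its variation 91.5% lay between fractions and 1.32% between repeats, the lowest share between repeats of the 47. NR1D2, a circadian repressor, rose by 0.35 and NR2F2, encoding COUP-TFII, by 0.25 on the log2 scale. The antisense gene NR2F1-AS1 rose by 0.48. Without the block NR1D2, NR2F2 and NR2F1-AS1 did not pass (limma adjusted p = 0.110, 0.221 and 0.0579), whereas NR3C1 did (0.00222). NR1D2, NR2F2 and NR2F1-AS1 also did not pass with upper-quartile scaling or after the correction for GC content. The groups of NR1D2 and NR2F2 overlapped. Among 24 nuclear receptor genes whose symbols fall outside the rule, 3 were listed and all were higher (58.7% of listed genes were called higher). The vitamin D receptor gene VDR rose by 1.03 ± 0.16, PPARG by 0.66 ± 0.14 and PPARD by 0.27 ± 0.087 (log2, SE). Of 19 nuclear receptor coregulators 4 were listed and higher (NCOA4, PPARGC1B, CREBBP and NSD1), from 0.32 to 0.54, and 2 of them (PPARGC1B and CREBBP) passed with upper-quartile scaling. PPARD did not pass under that scaling, without the block or without repeat 1.

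TOX2 (Entrez 84969, chr20:43914852-44069616) encodes an HMG box nuclear protein studied mainly in lymphocytes, and its sequence window is printed above. Its normalised count in PHLac-low was 4267, 4538, 4464 and 2490 in repeats 1 to 4, and in PHLac-high 2294, 2199, 1873 and 1034. The groups do not overlap, although the lowest PHLac-low value, in repeat 4, is close to the highest PHLac-high value. Its log2 changes were -0.90, -1.04, -1.25 and -1.27.

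The group means of TOX2 were 3940 ± 974 and 1850 ± 573 (SD, n = 4). Limma with the block gave a log2 change of -1.11 ± 0.076 (SE; adjusted p = 3.56e-05), which also passed without the block (adjusted p = 0.0204). Between fractions lay 64.6% of its variation and between repeats 34.2%, the reverse of the order in NR4A2. The genes most like it over the 8 libraries were NR5A2 (r = 0.942), SIX5 (0.936) and NR4A1 (0.924). Per kilobase of transcript, the mean levels of NR4A2 and TOX2 were close, at 1164 and 1111 normalised counts per kb.

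**Figure D2:**
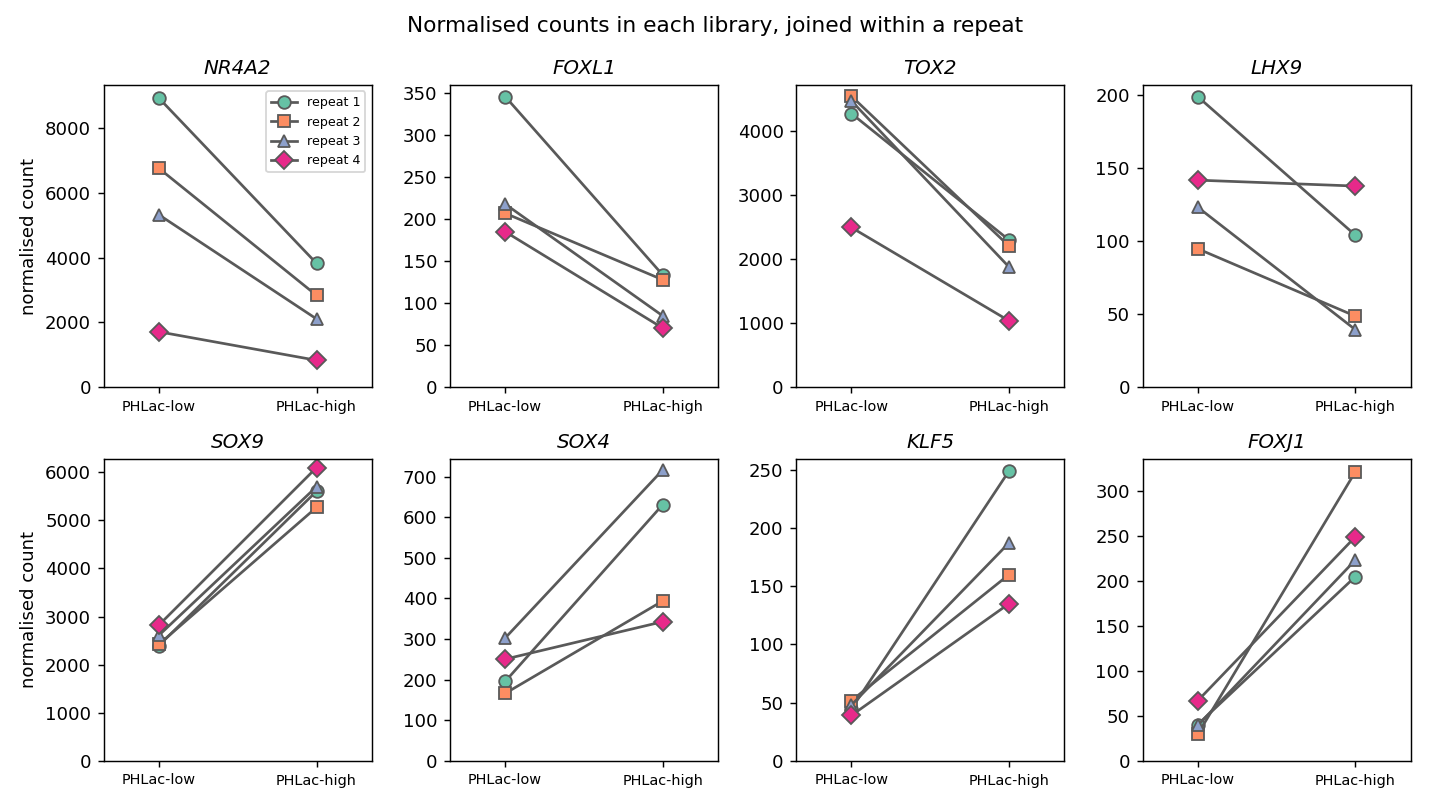
Normalised counts (vertical axes, from 0) of NR4A2, TOX2 and the other genes with the largest changes in each direction at a mean of at least 100, in PHLac-low and PHLac-high. Each symbol is 1 library and each line joins the libraries of 1 repeat. The NR4A2 lines start from 1709 to 8931, whereas the SOX9 lines nearly coincide.

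SOX genes, HMG box factors of progenitor cells, held the steadiest increase. SOX9 had 2399, 2422, 2610 and 2823 normalised counts in PHLac-low and 5606, 5271, 5701 and 6098 in PHLac-high, with no overlap. The means were 2564 ± 197 and 5669 ± 340 (SD, n = 4), a log2 increase of 1.15 ± 0.054 (SE; limma adjusted p = 1.24e-05), with changes from 1.11 to 1.22 in the 4 repeats. Between fractions lay 97.8% of its variation.

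SOX4, a factor of embryonic progenitors and of epithelial-mesenchymal transition, had 196, 166, 303 and 251 in PHLac-low and 631, 394, 717 and 343 in PHLac-high. Its groups did not overlap, and its increase of 1.15 ± 0.18 (SE) varied with the repeat, from 1.69 in repeat 1 to 0.45 in repeat 4. SOX15 rose by 0.48 ± 0.14 (SE) with overlapping groups, and did not pass without repeat 2 or without repeat 3. SOX12 was the exception, at -0.23 ± 0.073 (SE); it did not pass without repeat 3, and its change was 0.00340 after the correction for GC content, with the repeat as a block.

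Forkhead genes moved in both directions, and the largest of the 47 changes was among them. FOXJ1, the master regulator of motile cilia, had 40.3, 29.5, 39.3 and 66.8 in PHLac-low and 205, 321, 223 and 249 in PHLac-high. The lowest PHLac-high library (205) lay far above the highest PHLac-low library (66.8). The log2 change was 2.52 ± 0.24 (SE, limma adjusted p = 0.000109), the 12th largest increase of the table.

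FOXL1, a mesenchymal factor of the gut wall, had 346, 207, 218 and 185 in PHLac-low and 133, 128, 84.7 and 70.2 in PHLac-high. Its log2 change was -1.20 ± 0.16 (SE), and the groups did not overlap. FOXD1 (0.79), FOXK2 (0.31) and FOXO3B (0.46) were higher. FOXO3B is a near copy of FOXO3, so the division of reads between them is uncertain. The antisense gene FOXD2-AS1 changed by -0.36 ± 0.11 (SE), with 0.05 in repeat 4 against -0.39 to -0.59 in the others, and it did not pass without repeat 2 or without repeat 3.

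Krüppel-like zinc finger genes split by member. KLF5, a factor of proliferating epithelium, had 44.6, 51.7, 48.0 and 39.0 in PHLac-low and 249, 160, 187 and 135 in PHLac-high, which do not overlap. It rose by 1.94 ± 0.18 (log2, SE, limma adjusted p = 0.000109). KLF4, a factor of epithelial differentiation and of reprogramming, had means of 2035 ± 260 and 3793 ± 641 (SD, n = 4) and rose by 0.89 ± 0.075 (SE). KLF6, an abundant early-response gene, rose by 0.28 ± 0.056 from 17881 ± 1381. KLF9 (-0.29) and KLF11 (-0.38) were lower, and in KLF9 89.8% of the variation lay between repeats, the highest share of the 47.

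ETS genes of the ELF family showed the same mixture. ELF1 (0.62 ± 0.11, SE) and ELF4 (0.73 ± 0.069) were higher in every repeat, with separate groups. ELF3, an epithelial factor, was lower at -0.45 ± 0.093, and 86.6% of its variation lay between repeats. ELF5 is known from mammary alveolar cells and was near the limit of counting. It had 2.57, 7.39, 22.5 and 26.7 in PHLac-low and 12.9, 61.8, 163 and 11.9 in PHLac-high, so its change of 1.64 ± 0.63 (SE) had the opposite sign in repeat 4 (-1.10). ELF5 did not pass without repeat 1 (limma adjusted p = 0.0642), repeat 2 (0.147) or repeat 3 (0.138).

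Homeobox genes moved in both directions. HOX genes encode positional identity along the body axis. All 5 genes listed under a HOX symbol, among them the antisense RNA gene HOXB-AS3, were lower (41.2% of listed genes were called lower). Without the block HOXB3 alone passed, and the other 4 did not (limma adjusted p from 0.0733 to 0.270). Of these, 4 lie within the HOXB cluster on chromosome 17: HOXB2 (chr17:48542655-48545109), HOXB3 (chr17:48548870-48590241), HOXB-AS3 (chr17:48590420-48606414) and HOXB13 (chr17:48724763-48728750). HOXB3 was the one without overlap, with means of 341 ± 21.1 in PHLac-low and of 228 ± 18.8 in PHLac-high (SD, n = 4; log2 change -0.58 ± 0.10, SE). HOXB2 changed by -0.40, with -0.03 in repeat 4, and HOXB13 by -0.30. HOXB-AS3 changed by -1.12 ± 0.30 (SE) at a low level, 55.7 ± 39.0 against 30.6 ± 32.4 (SD, n = 4), and its groups overlapped. The libraries kept the strand but the counting setting is not given in the sources used here, so reads of neighbouring genes on opposite strands may not be separate. HOXA3, on another chromosome, changed by -0.31 ± 0.070 (SE), and 83.9% of its variation lay between repeats.

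SIX4, a homeobox factor of muscle and sensory organ precursors, was higher without overlap. It had means of 766 ± 87.7 and 1397 ± 99.95 (SD, n = 4) and a log2 change of 0.87 ± 0.096 (SE). SIX5, on chromosome 19, was lower at -0.30 ± 0.066 (SE), and its change was 0.083 after the correction for GC content, with the repeat as a block.

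The cardiac homeobox gene NKX2-5 had means of 2062 ± 366 and 3833 ± 335 (SD, n = 4; log2 change 0.91 ± 0.10, SE). The LIM homeobox genes went opposite ways: LHX1 rose by 0.53 ± 0.073 and LHX9 changed by -0.89 ± 0.24. LHX9 had 199, 94.8, 123 and 142 in PHLac-low and 104, 48.6, 39.4 and 138 in PHLac-high, so its fraction difference was almost absent in repeat 4 (-0.04). PAX2, a kidney factor, changed by -0.41 ± 0.11.

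Of 20 cofactors of homeobox proteins, 4 were listed and all were lower (41.2% of listed genes were called lower). MEIS2 changed by -0.45 ± 0.076, MEIS3 by -0.29, TGIF2 by -0.27 and PBX2 by -0.22 (log2). Without the block MEIS2 alone passed, in limma, edgeR and DESeq2. After the correction for GC content MEIS3 changed sign and did not pass.

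Helix-loop-helix genes included inhibitors and repressors. ID2 and ID3 encode proteins that bind E proteins and keep them from DNA. ID2 had means of 1950 ± 585 and 3772 ± 658 (SD, n = 4), rose by 0.98 ± 0.081 (log2, SE), and its groups did not overlap. ID3 was the most abundant of the 47 per kilobase, at 14606 normalised counts per kb, and rose by 0.32 ± 0.069 with overlapping groups. BHLHE40, a hypoxia and clock repressor, fell by 0.59 ± 0.060 from 14719 ± 3700 (SD, n = 4). Its groups overlapped, 59.1% of its variation lay between repeats, and it did not pass without the block (limma adjusted p = 0.0807). HEY1, a Notch target, rose by 0.58 ± 0.15 from 210 ± 92.8, and 70.5% of its variation lay between repeats.

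The Notch and BMP pathways lie upstream of HEY1 and of the ID genes. Of 35 Notch pathway genes, 12 were listed, 5 higher and 7 lower (median -0.22). The receptors NOTCH1 (-0.35) and NOTCH3 (-0.45) and the ligand JAG2 (-0.33) were lower, and NRARP, a feedback target, was higher (0.90 ± 0.14, SE). In repeat 4, however, NOTCH1 was higher in PHLac-high (6480 against 6300) and JAG2 nearly the same (9172 against 9208). NOTCH1 and JAG2 did not pass after the correction for GC content, and NOTCH3 did. Without the block, NRARP and TLE1 passed of the 5, and 0 of the 7, in limma and in edgeR's quasi-likelihood test. DESeq2 passed 4 and 1. Upper-quartile scaling left 2 higher and 7 lower, and correction for GC content 5 higher and 3 lower, with 1 change of sign. Of 25 BMP pathway genes, 4 were listed: RGMB (0.72), SMURF2 (0.48) and NOG (0.28) were higher, and the inhibitory SMAD6 (-0.60) lower. Without the block RGMB and SMURF2 passed in limma.

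TCF7, the Wnt effector of the HMG box class, changed by -0.47 ± 0.14 (SE). Its PHLac-low values were 304, 277, 235 and 684, so repeat 4 stood high, and 72.5% of its variation lay between repeats. Of 38 other Wnt pathway genes 9 were listed, 6 higher and 3 lower. AXIN2, a target of beta-catenin, rose by 1.42 ± 0.33 at 24.7 ± 12.9 against 60.8 ± 23.2 normalised counts (SD, n = 4), and the inhibitor DKK1 rose by 0.81 ± 0.073. Without the block 5 of the 9 passed in limma, DKK1 among them and AXIN2 not. Correction for GC content left 5 higher and 1 lower (WNT5B), and LRP5 changed sign.

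GATA2, a zinc finger factor of blood progenitors, had means of 3069 ± 304 and 5415 ± 1121 (SD, n = 4) and rose by 0.80 ± 0.11 (SE), without overlap. The T-box gene TBX1, of the pharyngeal arches, was close to the detection limit, at 18.4 ± 2.19 against 47.6 ± 12.9, and rose by 1.29 ± 0.25 (SE).

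**Figure D3:**
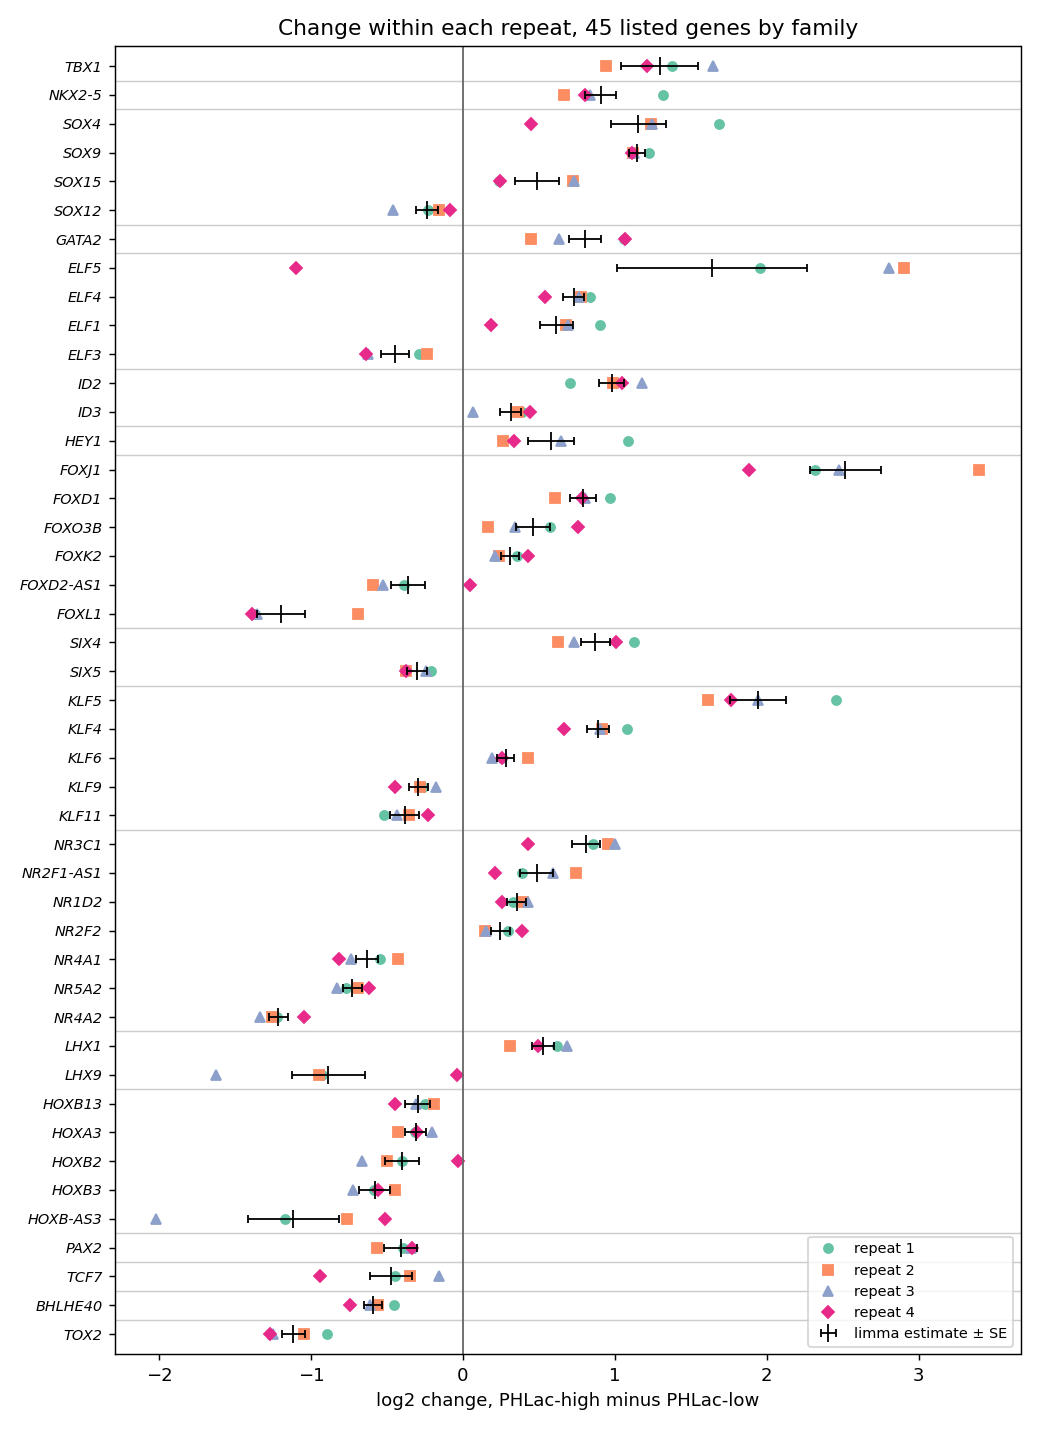
Log2 change (PHLac-high minus PHLac-low, horizontal axis) of 45 of the 47 genes in each repeat (coloured symbols), with the limma estimate and its SE (black), grouped by family. The 5 genes with a HOX symbol lie left of 0, and ELF5 and FOXD2-AS1 are the 2 genes with a repeat on the other side.

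Levels spanned a wide range. The mean normalised count ran from 33.0 (TBX1) to 20381 (NR4A1), with a median of 1081 (1335 for all listed genes), and 44 of the 47 reached a mean of 100. Per kilobase of the longest coding transcript, ID3 was followed by NR4A1 (5805 normalised counts per kb), KLF6 (4255), BHLHE40 (3537), NKX2-5 (1725) and ID2 (1402). LHX9 (14.2), ELF5 (15.8) and TBX1 (15.8) were the lowest. In PHLac-low NR4A1 stood above KLF6 (6985 and 3840 per kb), and in PHLac-high they were near each other (4625 and 4669).

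The repeat was a second source of variation for many of these genes. More of the variation lay between repeats than between fractions in 21 of the 47 (44.7%), as in 44.4% of listed genes. That held for 14 of the 20 lower genes and 7 of the 27 higher genes. The same split by direction over all listed genes is not given here, so it is not shown to be particular to the 47. Without the block, 21 of the 47 passed limma (31% of listed genes did), 17 higher and 4 lower (20.3% and 10.7% of listed genes). Repeat 4 was the lowest in both fractions for 18 of the 47 (38.3%, against 29.4% of listed genes), and 14 of those 18 were lower in PHLac-high. For this count too, the split by direction over all listed genes is not given here. Repeat 4 also had the smallest absolute change for 21 genes, where 29.3% of listed genes had theirs. Without repeat 4, all 47 passed in the same direction, and the share of all listed genes that did is not given here. The part of the repeats' culture or handling in this was not tested.

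**Figure D4:**
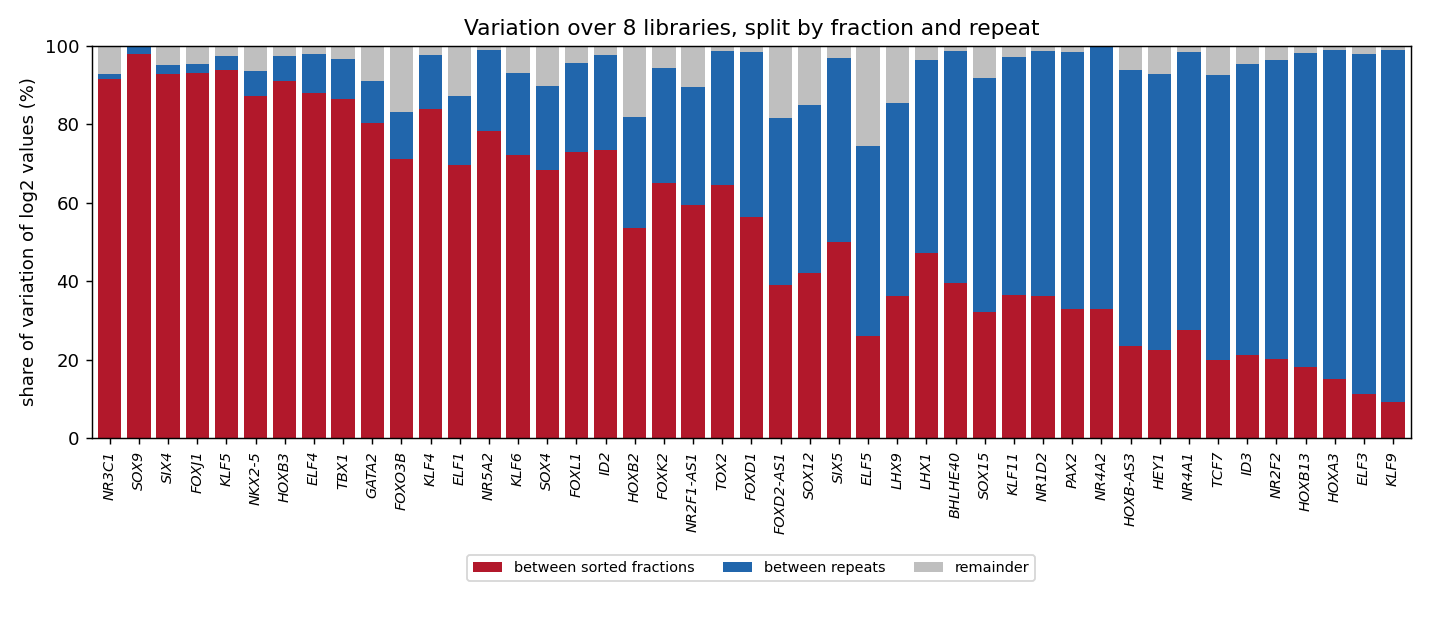
Share of the variation of log2 values over 8 libraries (vertical axis, %) that lies between sorted fractions (red), between repeats (blue) and in neither (grey), for 45 of the 47 genes, ordered by the share between repeats. NR3C1 and SOX9 are near one end, with 1.32% and 2.02% between repeats, and HOXA3, ELF3 and KLF9 at the other, with 83.9 to 89.8%.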

How the data were processed

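Messenger RNA was measured in 8 libraries (4 PHLac-low, 4 PHLac-high), grouped and paired by sample title. STAR, SAMtools, Subread and DESeq2 with build hg38 are named in the submitters' processing notes, without versions; their settings and the adjustment method are not given in the sources used here. The authors deposited a signal per gene and library (read counts divided by a size factor), a log2 fold change and an adjusted p-value, all at most 0.05. Dividing by the smallest step of a library turned 100% of its values into whole reads (tolerance 0.01), which gave the size factors.

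The test was limma 3.58.1 (R 4.3.3) on log2(normalised count + 1) over 3666 genes, with the repeat as a block, a mean-variance trend and Benjamini-Hochberg adjustment at 0.05. On this scale the changes of low genes are understated. The series is described as paired, and same-numbered libraries deviated together (correlation across genes 0.53 to 0.76). edgeR 4.0.16 and DESeq2 1.42.0 were run on the recovered reads, both with and without the block. GC content came from GENCODE release 29 (95.7% of genes), and was removed with a lowess curve (span 0.3), which also removes the median shift. The procedure was also run on simulated counts in which most genes were unchanged and none were selected. Its error rate on genes selected as here was therefore not examined.

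The genes and lists were chosen with earlier results of these data known, and the p-values come from genes selected on the same libraries. Named with values were NR4A2, TOX2, genes with an absolute change of at least 1, the largest change per family and direction, and every gene of families of up to 3. Others are named to account for each family, and 2 of the 47 are counted but not reported here by name. Values per library were given for the 4 largest changes in each direction at a mean of at least 100, and for ELF5 and TCF7 after their values were seen.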

Additional observations from a re-analysis of the deposited data

Results flagged for a closer look

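In 24 groups of 4 values (each fraction, and the change within repeats, for the 8 genes with the largest changes), the distance of the most extreme value to its neighbour was divided by the range. Ratios above Dixon's critical value for 4 samples are reported, which chance alone gives in about 1.2 of 24 groups, and 3 groups had one. For TOX2 the PHLac-low library of repeat 4 (2490) was far below the other 3, with a gap of 0.898 of the range on the log2 scale. For FOXL1 the change in repeat 2 (-0.69) was far smaller than in the others (-1.35 to -1.39), with a gap of 0.952. For SOX9 the change in repeat 1 (1.22) was above the others (1.11 to 1.13), with a gap of 0.860 of a narrow range.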

How the results depend on the processing

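All 47 genes passed in limma, edgeR and DESeq2 with the block. Without the replicate block 21 passed in limma and 21 in edgeR (each 17 higher and 4 lower), and 26 in DESeq2 (4 lower). In limma 31% of listed genes passed without the block. The shares of listed genes in edgeR and DESeq2, with or without the block, are not given here. Upper-quartile scaling left 17 higher. The log2 change of NR4A2 without the block was -1.21 in limma (adjusted p = 0.0981), -1.24 in edgeR (0.0785) and -1.24 in DESeq2 (0.0764). Leaving out 1 repeat gave -1.27 to -1.17 for NR4A2 and -1.19 to -1.06 for TOX2. Over its alternatives TOX2 ranged from -1.34 to -1.02, with adjusted p up to 0.0204. Correction for GC content with the replicate block turned SIX5 to 0.0832 and SOX12 to 0.00340. Of 417 values for 28 named genes under 15 alternatives, 364 kept direction and call, and 51 no longer passed, 40 of these without the block. The fits without the block in edgeR and DESeq2 were chosen after seeing the data. A mean of at least 100 leaves out ELF5, HOXB-AS3 and TBX1 by construction; other causes were not tested. Counts limit ELF5, TBX1 and HOXB-AS3, whose means are under 100.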
